A study of Mus musculus with 12 samples.

Results

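The genes of the MYC, MAX and MXD network were followed in 12 mouse pre-B cell lines, of which 6 carried an empty vector (EV) and 6 carried BCR-ABL1. The members, taken by symbol, were Myc, Mycn, Mycl, Max, Mxd1, Mxd3, Mxd4, Mxi1, Mnt and Mlx. These are 10 of the 51826 genes in the count table, and they were chosen with earlier results of these data known. Bone marrow of 2 mice of strain C57BL/6 was grown with interleukin 7 (IL7), a cytokine that pre-B cells need in culture, for 7 days. Each culture was split for retroviral transduction, which yielded 3 EV lines and 3 BCR-ABL1 lines per mouse. BCR-ABL1 is the fusion kinase of the Philadelphia chromosome, and the empty vector is the same pMIG vector without it. After 48 h, IL7 was withdrawn from the BCR-ABL1 lines for 1 week, whereas EV lines stayed in IL7 until cells with vector were collected by a GFP sort. A sort is stated for EV lines only. BCR-ABL1, loss of IL7 and this difference in sorting therefore coincide in all 6 transformed lines, and their parts in a difference cannot be told apart. Lines are named by the digit and letter of their titles, and the digit was taken as the mouse. EV 2C is thus the third EV line of mouse 2.

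MYC, MYCN and MYCL are related transcription factors that bind DNA only as dimers with MAX, mostly at the E-box CACGTG, and activate genes of ribosome production, metabolism and cell division. The MXD proteins and MNT compete for MAX, bind the same E-boxes and recruit repressors. MLX is a partner that MXD1, MXD4 and MNT can use in place of MAX, and that also serves the glucose sensing factors MondoA and ChREBP. In pre-B cells, MYC is known as a factor of the large, cycling stage that IL7 sustains, and MYCN has been described beside it in early lymphoid precursors.

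Libraries held 34791011 to 66011225 counts. Levels are given as CPM, that is counts scaled to a common library total, with TMM factors between lines, and 3 counts, taken as the floor, equal at most 0.0918 CPM. B lineage markers such as Cd79a and Pax5 were high in every line. Over 9 such genes the sum was 4380 to 7640 CPM per EV line and 4486 to 5047 CPM per BCR-ABL1 line, and none was called. Summed markers of other cells were at most 1.10 CPM for 8 myeloid genes, 3.76 CPM for 7 T and NK genes, 0.826 CPM for 4 erythroid genes, 0.214 CPM for 4 mast cell and basophil genes and 1.16 CPM for 4 stromal genes. Cd3d, at 0.485 CPM in EV and 0.0754 CPM in BCR-ABL1 lines, was the marker called lower. It was named after its values were seen. EV 2C stood apart from the other EV lines, and results that rest on it are given with and without it. Of the 2787 genes called without EV 2C, 46.4% lay nearer to the BCR-ABL1 mean than to the mean of the other EV lines in EV 2C. The same share, over the genes called without the line in question, was 2.38% to 3.38% for EV lines of mouse 1, 21.7% for EV 2A and 15.9% for EV 2B.

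The sequences before the start sites are shown first, because the E-box is the site at which these proteins themselves bind and because Mycn and Mxd4 are the members that differed most. RefSeq promoter windows on GRCm38.p6, from 250 bases before to 50 bases after the start, were at hand for 9 members and were searched on both strands. No window was at hand for Myc, so its promoter was not searched. For Mycn the 250 bases before the start, chr12:12941837-12942086 on the minus strand, are given with the E2F motifs TTTGGCGC and TTTCGCGC in capitals.
Mycn: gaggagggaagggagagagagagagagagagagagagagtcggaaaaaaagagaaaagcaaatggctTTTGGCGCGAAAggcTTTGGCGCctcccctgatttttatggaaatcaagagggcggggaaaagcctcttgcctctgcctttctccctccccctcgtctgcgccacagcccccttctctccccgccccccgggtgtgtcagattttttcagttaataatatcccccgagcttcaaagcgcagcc
The first capital block holds TTTGGCGC, which begins 183 bases before the start, overlapping with TTTCGCGC read on the other strand. The second block is a further TTTGGCGC, 168 bases before the start. E2F factors are regulators of genes of the G1 to S transition. Of the members searched, Mycn alone had either motif, which 0.813% of the 32851 windows of all genes held.

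The E-box CACGTG, the same on both strands, was found in 4 members, Mxd4, Mnt, Mlx and Max, which have 1 window each. The members searched have 11 windows together. Of the windows of all genes 7.15% held it. It is in capitals in the 250 bases before the Mxd4 start, chr5:34187711-34187960 on the minus strand, and in stretches of 60 bases for Mnt, chr11:74830774-74830833 on the plus strand, Mlx, chr11:101087220-101087279 on the plus strand, and Max, chr12:76962239-76962298 on the minus strand.
Mxd4: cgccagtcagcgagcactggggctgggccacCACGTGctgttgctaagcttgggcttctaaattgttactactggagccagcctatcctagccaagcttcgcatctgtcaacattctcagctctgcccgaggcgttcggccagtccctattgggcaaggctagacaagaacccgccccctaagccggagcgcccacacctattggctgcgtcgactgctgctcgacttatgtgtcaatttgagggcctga
Mnt: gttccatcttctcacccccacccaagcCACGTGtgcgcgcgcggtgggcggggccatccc
Mlx: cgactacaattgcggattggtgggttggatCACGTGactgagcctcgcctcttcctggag
Max: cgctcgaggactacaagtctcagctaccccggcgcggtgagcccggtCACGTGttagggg
The E-box began 219 bases before the start of Mxd4, 123 bases for Mnt, 40 bases for Mlx and 3 bases for Max. The letters TTCNNNGAA, which STAT factors can bind, were in 0 member windows and in 8.30% of all windows. A match describes letters only, since no binding was measured.

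To ask how the network differed between transformed and control lines, the 2 conditions were tested by edgeR's glmTreat against a 1.5-fold change. The false discovery rate (FDR) below is the Benjamini-Hochberg adjusted p over 15038 tested genes, called under 0.05. Mxd4, a repressor, fell 2.64-fold in the mean of 6 lines, and Mycn was higher in all BCR-ABL1 lines, although the wide spread of its EV lines kept it from passing the test. Myc itself differed by less than the spread between lines. Of the 10 members 9 passed the filter on low counts, all but Mycl, and of these 0 were called higher and 1 lower, Mxd4. Over all tested genes 901 (5.99%) were called higher and 976 (6.49%) lower, and the members' counts are therefore not set apart from the background. The likelihood ratio fit called Mycn besides Mxd4, and DESeq2 called Mxd4 but gave no adjusted p for Mycn. The shares of all genes called by these fits are not given here, so these calls are not set against a background. Tested against no change, which calls 22.5% of genes higher and 25.9% lower, Mycn and Max were higher and Mxd1, Mxd3, Mxd4 and Mlx were lower, each by an FDR from the edgeR quasi-likelihood test. The p-values measure the spread between lines, which come from 2 mice and, per the labels, 3 independent experiments. In bulk RNA, fewer cells of a type and less RNA per cell cannot be told apart.

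**Figure D1:**
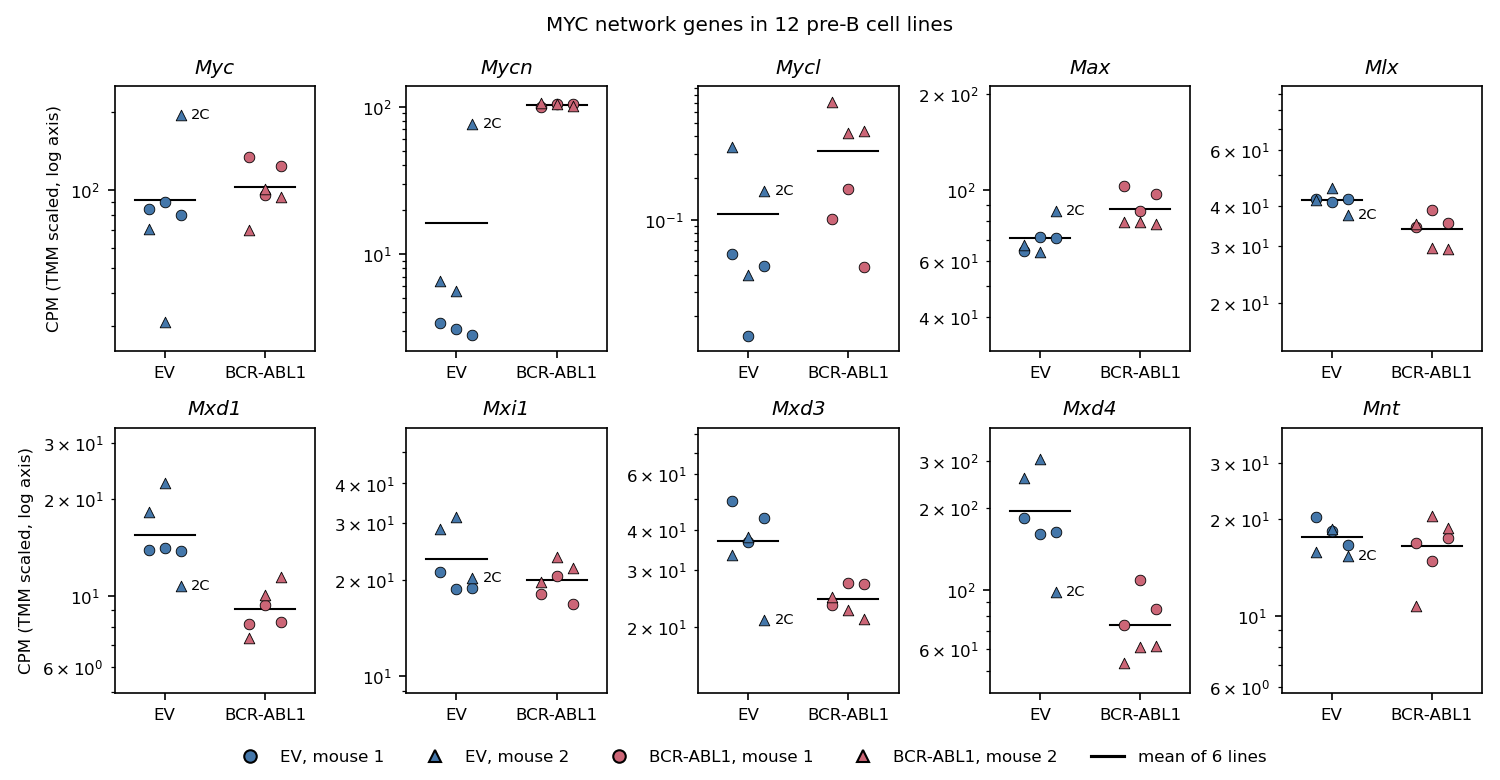
Levels of the 10 network genes in CPM on a logarithmic axis, by condition, with each line as a point (circle for mouse 1, triangle for mouse 2) and the mean of 6 lines as a bar. Mycn of the BCR-ABL1 lines lay between 99.8 and 106 CPM, above all EV lines, and EV 2C was the EV line nearest to the BCR-ABL1 lines for Mycn, Max, Mlx, Mxd1, Mxd3 and Mxd4.

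Myc, at chromosome 15, 61985391 to 61990374 on GRCm38 encodes the founding member of the family and varied widely between EV lines. In these it was 84.5, 90.2 and 80.3 CPM for mouse 1 and 70.7, 31.0 and 195 CPM for mouse 2. In BCR-ABL1 lines it was 135, 95.8 and 124 CPM for mouse 1 and 70.4, 101 and 94.5 CPM for mouse 2. The groups overlapped, with EV 2C above every BCR-ABL1 line and EV 2B below them all. The mean was 91.9 ± 54.6 CPM in EV and 103 ± 22.9 CPM in BCR-ABL1 lines (SD, n = 6), and the log2 fold change of BCR-ABL1 over EV was 0.17 (SE 0.37, FDR = 1.00 by glmTreat). An exact two-sided permutation test over all 924 labelings of the 12 lines gave p = 0.424. The log2 fold change was 0.48 within mouse 1 and -0.15 within mouse 2, and 0.54 without EV 2C (edgeR FDR = 0.776).

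Mycn, at chromosome 12, 12936093 to 12941914, showed the largest difference of the members. Its EV lines held 3.39, 3.07 and 2.82 CPM in mouse 1, from 180 to 213 counts, and 6.51, 5.59 and 76.4 CPM in mouse 2. The last value is EV 2C, with 4239 counts. The BCR-ABL1 lines held 99.8, 105 and 105 CPM in mouse 1 and 106, 105 and 100.4 CPM in mouse 2, an SD of 2.67 CPM around 103 CPM. Mycn was the one member whose groups did not overlap, where 25.6% of all tested genes had groups that did not overlap in either direction. The BCR-ABL1 lines of both mice reached nearly the same level. The mean was 6.35-fold higher, with a log2 fold change of 2.66 (SE 0.73) and an FDR of 0.0705 by glmTreat. A fit with mouse as replicate block gave 3.39 and called Mycn (edgeR FDR = 0.0195). That block called 7.49% of all genes higher and 7.18% lower, and of the members Mycn higher and Mxd4 lower. Leaving out EV 2C gave 4.61 (edgeR FDR = 5.29e-07), in a fit that called 8.83% of genes higher and 9.35% lower, again with Mycn and Mxd4 as the members called. The exact permutation p was 0.00216, the smallest that 924 labelings can give, and 0.005, also the smallest possible, when lines were exchanged within each mouse only.

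The difference in Mycn was 33.3-fold in the lines of mouse 1, with a log2 fold change of 5.07 (edgeR FDR = 1.88e-11), and 3.52-fold in those of mouse 2, with 1.81 (edgeR FDR = 0.532). The interaction of mouse and condition, tested by glmQLFTest, was -3.25 on the log2 scale with an FDR of 0.0657, and 16.9% of all genes but 0 members were called. Without EV 2C the interaction of Mycn was called, at -0.95 on the log2 scale (edgeR FDR = 6.25e-05), with EV 2A and 2B above the EV lines of mouse 1. It was also called without EV 2A (edgeR FDR = 0.0242) and without EV 2B (edgeR FDR = 0.0127). The interaction of Mxd4 was called without EV 2C as well. The share of all genes called in these fits is not given here.

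Mycl, at chromosome 4, 122995650 to 123002480, was near the limit of detection. EV lines held 1 to 11 counts, 29 in all, and BCR-ABL1 lines 2 to 37 counts, 102 in all. Its highest level was 0.712 CPM. The groups overlapped, and the exact permutation p was 0.0952 over all lines and 0.015 within mice. It adds next to nothing to the summed MYC family.

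Max, at chromosome 12, 76937269 to 76962201, encodes the partner that every MYC protein needs. It ranged from 64.1 over a median of 69.0 to 86.2 CPM in EV lines and from 78.3 over 82.9 to 103 CPM in BCR-ABL1 lines. The highest EV value was EV 2C, and the other EV lines, at 71.4 CPM or less, were below every BCR-ABL1 line. The share of all genes that separate without EV 2C was not counted. The log2 fold change was 0.30 (SE 0.09), which is under the 1.5-fold tested by glmTreat (FDR = 1.00). Against no change the edgeR FDR was 0.0183, and the exact permutation p was 0.00866. Mlx, at chromosome 11, 101087280 to 101092210, ranged from 37.7 over 42.0 to 45.5 CPM in EV and from 29.4 over 35.0 to 39.0 CPM in BCR-ABL1 lines. It differed by -0.30 on the log2 scale (SE 0.07, FDR = 1.00 by glmTreat, 0.00743 against no change), with an exact permutation p of 0.00433. Exons of Mlx overlap over 385 bases, 19.3% of their length, with Psmc3ip on the other strand, and whether the counting used strand is not given in the sources used here, so reads of the pair may not be told apart.

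Among the repressors, Mxd4, at chromosome 5, 34173883 to 34187720, had the highest mean per length in EV lines and was the member that fell. EV lines held 185, 161 and 164 CPM in mouse 1 and 259, 306 and 97.8 CPM in mouse 2. BCR-ABL1 lines held 74.0, 109 and 84.7 CPM in mouse 1 and 53.6, 61.2 and 61.7 CPM in mouse 2. EV 2C was the lowest EV line, and it alone overlapped with the BCR-ABL1 lines, being below BCR-ABL1 1B. The mean fell 2.64-fold, with a log2 fold change of -1.40 (SE 0.28, FDR = 0.0128 by glmTreat) and an exact permutation p of 0.00433. With mouse as replicate block it was -1.42 (edgeR FDR = 0.0133), and with the line pair as replicate block -1.34, which was not called (edgeR FDR = 0.0525). Within mouse 1 it was -0.92 (edgeR FDR = 0.00961) and within mouse 2 -1.89 (edgeR FDR = 0.0596), and the difference between the mice was not called (interaction FDR = 0.173). Leaving out EV 2C gave -1.54 (edgeR FDR = 0.00219). The interaction, at -1.33, was then called (FDR = 0.000168), in a fit whose share of all genes called is not given here.

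Mxd1 and Mxd3, the other MXD repressors whose lines mostly separated, had lower means in BCR-ABL1 lines but did not pass the 1.5-fold test. Mxd1, at chromosome 6, 86647042 to 86669161, ranged from 10.7 over 14.0 to 22.4 CPM in EV and from 7.37 over 8.81 to 11.4 CPM in BCR-ABL1 lines. It differed by -0.77 on the log2 scale (SE 0.18, FDR = 0.253 by glmTreat, 0.00393 against no change). Mxd3, at chromosome 13, 55325168 to 55329823, ranged from 21.0 over 37.5 to 49.2 CPM in EV and from 21.2 over 24.1 to 27.3 CPM in BCR-ABL1 lines. EV 2C was the lowest EV line for both. The other EV lines, from 13.8 CPM for Mxd1 and from 33.4 CPM for Mxd3, stayed above all transformed lines. No share of all genes that separate without EV 2C was counted, so this is not set against a background. For Mxd3 the log2 fold change was -0.60 (SE 0.18, FDR = 0.685 by glmTreat, 0.0106 against no change). The exact permutation p was 0.00433 for Mxd1 and 0.0173 for Mxd3. Mxd3 shares 105 bases of exon with Prelid1 on the other strand. Prelid1 had up to 12164 counts in a line and Mxd3 at most 2838, so reads of this pair too may not be told apart.

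Mxi1 and Mnt, which repress through the same corepressors, differed by less than the spread between lines. Mxi1, at chromosome 19, 53310518 to 53375810, was 23.2 ± 5.48 CPM in EV and 20.0 ± 2.45 CPM in BCR-ABL1 lines (SD, n = 6), with a log2 fold change of -0.21 (SE 0.15, FDR = 1.00 by glmTreat) and an exact permutation p of 0.249. Mnt, at chromosome 11, 74830920 to 74845725, was 17.6 ± 1.91 CPM in EV and 16.5 ± 3.42 CPM in BCR-ABL1 lines (SD, n = 6), with -0.09 (SE 0.15, FDR = 1.00 by glmTreat) and an exact permutation p of 0.545.

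**Figure D2:**
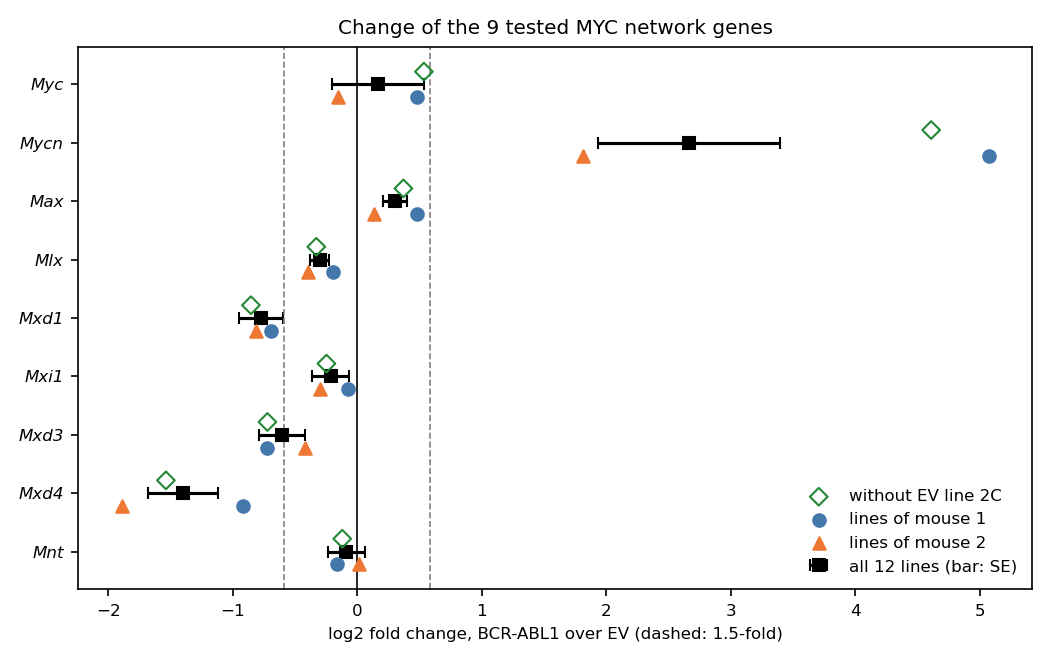
Log2 fold change of BCR-ABL1 over EV for the 9 tested members on the x axis, over all 12 lines with its SE (squares), without EV 2C (open diamonds) and within each mouse, with the 1.5-fold limits dashed. Mycn spread from 1.81 in mouse 2 to 5.07 in mouse 1, Mxd4 was below zero in every fit, and Myc had opposite signs in the mice.

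Levels were compared between genes per kilobase of exon, taken over the union of all transcripts. In EV lines the order of mean levels was Myc (33.8 CPM per kb), Mxd4 (23.0), Mlx (20.9), Max (19.6), Mxd3 (15.6), Mycn (4.95), Mnt (3.80), Mxi1 (3.40), Mxd1 (2.19) and Mycl (0.0270). Neighbours in that order had overlapping ranges except Mxd1 and Mycl. In BCR-ABL1 lines the order was Myc (38.0 CPM per kb), Mycn (31.4), Max (24.3), Mlx (17.0), Mxd3 (10.3), Mxd4 (8.72), Mnt (3.58), Mxi1 (2.93), Mxd1 (1.29) and Mycl (0.0779). Here the ranges of Myc and Mycn, of Mxd3 and Mxd4 and of Mnt and Mxi1 overlapped, and other neighbours did not. Mycn was thus sixth among EV lines and second among BCR-ABL1 lines. Its EV rank rests on EV 2C, at 23.2 CPM per kb. The other EV lines held 0.857 to 1.98 CPM per kb of Mycn. That is below the lowest EV value of Mnt (3.33) and of Mxi1 (2.75). With the length of the longest transcript instead, Mxd4 was first in EV and Max first in BCR-ABL1 lines. Mycn was then at rank 6 in EV lines, again with EV 2C included, and rank 3 in BCR-ABL1 lines.

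Summed per kilobase, the MYC family ranged from 13.1 over a median of 31.3 to 94.9 CPM per kb in EV lines and from 58.3 over 68.1 to 79.9 CPM per kb in BCR-ABL1 lines. The highest EV value was EV 2C, above all BCR-ABL1 lines, whereas the next EV line, 1B, had 34.1 CPM per kb. Mycn made up 2.73% to 24.4% of the family sum in EV lines and 37.9% to 55.3% in BCR-ABL1 lines, so the shares did not overlap. The 4 MXD genes and Mnt summed to 28.2 to 63.9 CPM per kb in EV lines and 23.0 to 31.9 CPM per kb in BCR-ABL1 lines. EV 2C, at 28.2, was the one EV line in the range of the BCR-ABL1 lines. The ratio of the MYC family to these repressors was 0.205 to 0.789 in the EV lines other than 2C, 3.37 in EV 2C and 2.103 to 3.07 in BCR-ABL1 lines. These sums are of RNA and carry no test.

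**Figure D3:**
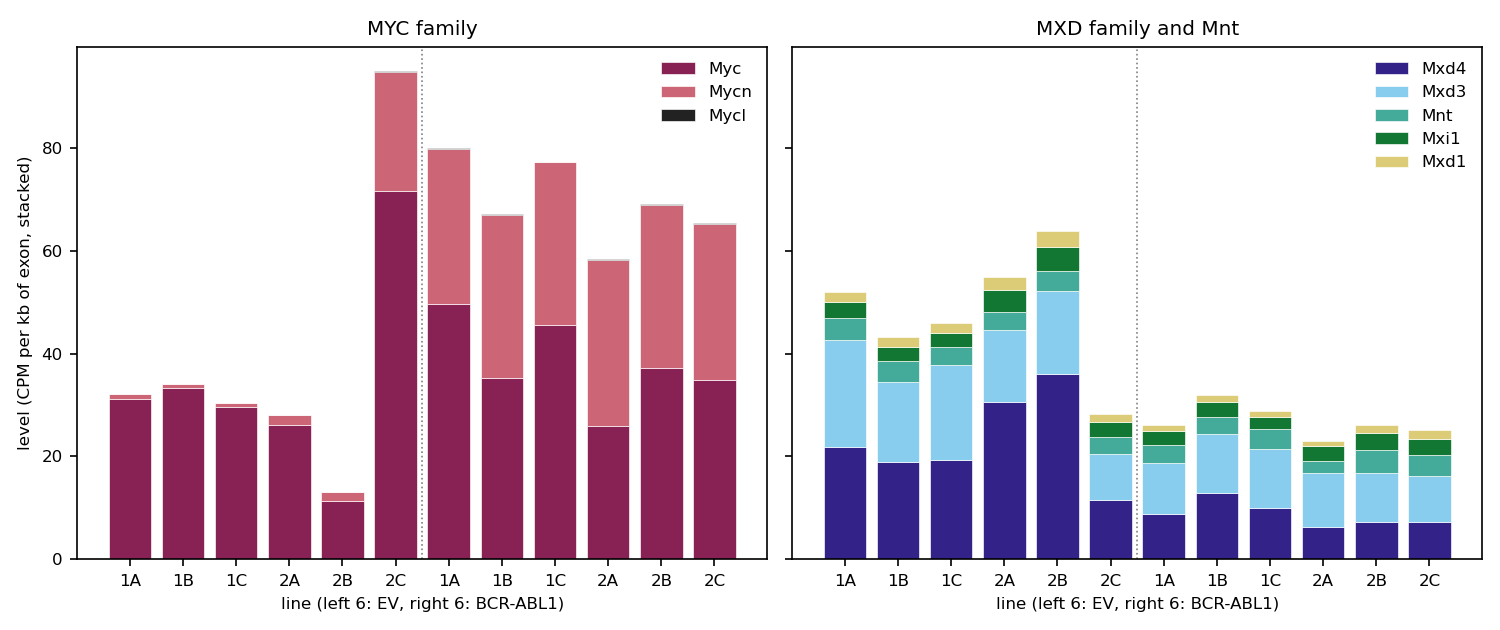
Stacked levels in CPM per kb of exon for the MYC family (left panel) and for the MXD genes with Mnt (right panel), with 1 bar per line, EV lines left and BCR-ABL1 lines right of the dotted line. The Mycn segment was 37.9% to 55.3% of the bar in BCR-ABL1 lines, and EV 2C had the tallest MYC family bar and the shortest repressor bar of the EV lines.

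Of 50 genes commonly named as induced by MYC, all of them tested, 5 were called higher and 0 lower, beside 5.99% and 6.49% of all genes. All 50 had a positive log2 fold change, from 0.24 to 3.05 with a median of 0.70, also under RLE scaling and total counts, whereas 48.3% of all tested genes were positive, with a median of -0.02. Within mouse 1 all 50 and within mouse 2 49 were positive. This list and those below were chosen with earlier results of these data known. Their counts describe these lines and are no independent support. Ccnd2, a D cyclin, had the largest rise, from 8.58 to 170 CPM per EV line against 373 to 482 CPM per BCR-ABL1 line, with a log2 fold change of 3.05 (SE 0.68, FDR = 0.0111 by glmTreat). Ldha, lactate dehydrogenase A, rose by 1.59 (SE 0.20, FDR = 0.000705 by glmTreat), from 250.5 ± 73.7 to 753 ± 117 CPM (SD, n = 6). The other called genes, named after their values were seen, were Tfrc, the transferrin receptor, at 1.38, Gnl3, a nucleolar GTP-binding protein, at 1.23, and Eno1, a glycolytic enolase, at 1.19. Gnl3 was called in 1 of the 12 fits that left out a line, the one without EV 2C, and Ccnd2, Ldha, Tfrc and Eno1 in all 12.

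EV 2C, the EV line with the most Myc and Mycn, had the highest EV level of 47 of these 50 genes. The share of all tested genes that were highest in EV 2C was not counted, so this count is not set against a background. Against the mean of the EV lines, the median gene of the list was at -0.07, 0.08 and 0.07 in EV 1A, 1B and 1C, -0.19 in EV 2A, -0.71 in EV 2B and 0.85 in EV 2C on the log2 scale. In the BCR-ABL1 lines that median was between 0.72 and 0.87. The list summed to 9310 to 13054 CPM in the EV lines other than 2C, 20408 CPM in EV 2C and 21608 to 24146 CPM in BCR-ABL1 lines. The EV lines therefore fell in the same order at both ends as for Myc, with EV 2B lowest and EV 2C highest. Groups did not overlap for 12 of the 50 genes, all higher in BCR-ABL1 lines, beside 25.6% of all genes in either direction. Without EV 2C 26 of the 50 were called higher and 0 lower, beside 8.83% and 9.35% of all genes.

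**Figure D4:**
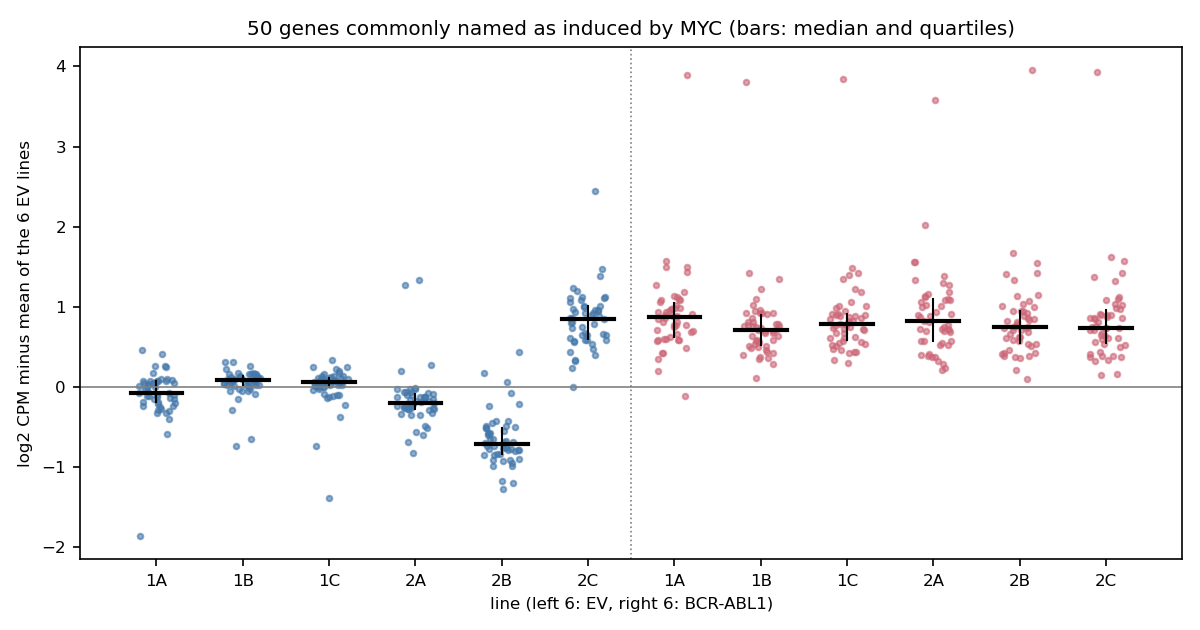
Log2 CPM minus the mean of the 6 EV lines for the 50 genes commonly named as induced by MYC, with 1 column of points per line and bars for the median and quartiles. The median of EV 2C, at 0.85, lay within the 0.72 to 0.87 of the BCR-ABL1 lines, and that of EV 2B was -0.71.

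Of 12 genes commonly named as repressed by MYC, 9 were tested, of which 1 was called higher and 0 lower, beside 5.99% and 6.49% of all genes. The same shares stand beside the glmTreat counts of the lists that follow. In lists this short, such counts are not set apart from the background. That was Cdkn2b, an inhibitor of CDK4 and CDK6, which had 0 to 5 counts per EV line, 6 in all, and 41 to 60 counts per BCR-ABL1 line, 300 in all (FDR = 0.000394 by glmTreat). With mouse as replicate block edgeR also called Gadd45a, a stress response gene named after its values were seen, with 1.96 ± 2.48 CPM in EV and 7.34 ± 2.01 CPM in BCR-ABL1 lines (SD, n = 6, FDR = 0.0241). Of 19 coactivators and corepressors of the network, among them the acetyltransferase Kat2a and the scaffold Trrap, 0 were called, with a median log2 fold change of -0.04. Without EV 2C 1 of the 19 was called higher, Kat2a, at 1.19 (edgeR FDR = 0.00974). Within mouse 1 Kat2a was also called, at 1.68 (edgeR FDR = 1.39e-07), while mouse 2 gave 0.23. Of 17 genes of MYC protein turnover, such as the ubiquitin ligase gene Fbxw7, 0 were called, with a median of 0.04. Without EV 2C 2 of the 17 were called higher, and 0 of either list lower, beside 8.83% and 9.35% of all genes. Of 18 proliferation genes, such as Mki67 and Top2a, 0 were called, while all 18 were positive, also under RLE scaling and total counts, with a median of 0.31. Within mouse 1, however, 11 of the 18 were positive, with a median of 0.10, and within mouse 2 all 18, with a median of 0.58. The change differed between the mice for 7 of them by glmQLFTest, beside 16.9% of all genes. Their sum was 5107 to 7884 CPM per EV line and 7820 to 8883 CPM per BCR-ABL1 line, with 6409 CPM in EV 2C, between the EV lines of mouse 1 and the other EV lines of mouse 2. Tested against no change by edgeR, 9 of the 18 were called higher, beside 22.5% of all genes.

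Of the other network proteins, Mga, a large partner of MAX, was 153 ± 19.0 CPM in EV and 206 ± 4.38 CPM in BCR-ABL1 lines (SD, n = 6). Its lines did not overlap, and its log2 fold change of 0.43 (SE 0.07) was under the 1.5-fold tested (FDR = 1.00 by glmTreat, 0.000829 against no change). Mlxip, which encodes MondoA, was 50.8 ± 12.3 and 54.0 ± 8.79 CPM (SD, n = 6), and Mlxipl, which encodes ChREBP, had at most 18 counts and was not tested. Of the targets of MondoA and MLX, Txnip, a brake on glucose uptake, had a log2 fold change of 0.03 (SE 0.52, FDR = 1.00 by glmTreat), made up of 1.34 in mouse 1 (edgeR FDR = 0.000145) and -0.65 in mouse 2 (edgeR FDR = 0.966). The difference between the mice was not called (interaction FDR = 0.0696). Arrdc4 had at most 4 counts in any line and was not tested.

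Pvt1, the noncoding RNA gene that follows Myc on chromosome 15, at 62037986 to 62378096, rose. It was 2.35 to 11.4 CPM in the EV lines other than 2C, 17.7 CPM in EV 2C and 21.0 to 29.6 CPM in BCR-ABL1 lines, so the groups did not overlap. Its log2 fold change was 1.79 (SE 0.49, FDR = 0.0427 by glmTreat) and 2.12 with mouse as replicate block (edgeR FDR = 0.0032). It was called in 2 of the 12 fits that left out a line, those without EV 2A or EV 2C. The change was larger in mouse 1, at 3.08, than in mouse 2, at 1.21 on the log2 scale (interaction FDR = 0.00458 by glmQLFTest).

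Over the 12 lines, the genes whose log2 CPM followed Myc most closely, among 11051 genes ranked, were Cyc1 (Pearson r = 0.976), Diexf (0.963), Banf1 (0.962), Ppargc1b (0.958) and Ece2 (0.955). The lowest r was that of Insig1 (-0.971), Elf1 (-0.964) and Samd9l (-0.961). Cyc1 encodes cytochrome c1 of the respiratory chain, Ppargc1b a coactivator of mitochondrial genes and Insig1 a sensor that holds back cholesterol synthesis. Without EV 2C r lay between 0.943 and 0.969 for the first 5 genes and between -0.977 and -0.950 for the others. The lines differ in culture with or without IL7 and in depth. These values describe likeness only and carry no test. None of the 8 genes was called between the conditions.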

How the data were processed

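Stranded libraries were made from total RNA of the 12 lines. Per the submitters' processing notes, FastQC 0.11.5, Trimmomatic 0.36, TopHat2 2.1.1, Bowtie2 2.3.2, featureCounts 1.5.3, R 3.6.1, edgeR 3.18.1 and the build GRCm38 were used, without parameters. The authors deposited whole-number counts of reads per gene, not normalized and not pooled. The annotation and strand setting of the counting are not given in the sources used here. Of 51826 identifiers 51633 had a symbol in GENCODE M21, which also gave positions and exon lengths.

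Versions used here were edgeR 4.0.16 and DESeq2 1.42.0 with limma 3.58.1 under R 4.3.3. Plots were drawn by matplotlib 3.10.9 (Python 3.11.15). Genes were kept by filterByExpr, scaled by TMM and tested by glmTreat on the quasi-likelihood fit against 1.5-fold, with Benjamini-Hochberg adjustment over all tested genes and a threshold of 0.05. Standard errors came from log2 CPM (prior count 2) between lines, and differences between the mice from glmQLFTest. Depth was 34791011 to 66011225 counts per line, and the floor of 3 counts covers counting error only. The tests were also run on simulated counts, with an outcome that is not given here. No difference between mice and no outlying line was simulated, so that run does not bear on either. Conditions, digits and line letters were read from the sample titles. The titles do not name a mouse, and the digit was taken as the mouse because the study used 2 mice.

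The members and the lists were chosen with earlier results of these data known. Named were the members, all genes of lists with 3 or fewer genes, Pvt1, up to 2 called genes per list at either end of the log2 fold changes, and the 5 most and 3 least like Myc in Pearson r, where the mean log2 CPM had to reach 1. Others are marked. A marker gene of the B lineage list is not reported here.

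EV and BCR-ABL1 lines with the same first digit were taken to come from the same mouse, which pairs them. The correlation of deviations from condition means was 0.0853 to 0.240 for such lines and -0.203 to -0.0635 for lines of different mice. Replicates differed by more than counting error (chi-square per gene 9.96 to 481), and no library was counted as a repeat. Alternatives were scaling by RLE or total counts, no filter or one at CPM 1 in 6 lines, DESeq2, the likelihood ratio fit, a null of no change, a replicate block of mouse or of line pair, each mouse alone and leaving out each line.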

Additional observations from a re-analysis of the deposited data

Results flagged for a closer look

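EV 2C lay far above the other 5 EV lines for Myc (195 CPM, others 31.0 to 90.2), Mycn (76.4 CPM, others 2.82 to 6.51) and Max (86.2 CPM, others 64.1 to 71.4), and for the MYC induced genes Gnl3 (265 CPM, others 59.6 to 125) and Eno1 (365 CPM, others 148 to 188). BCR-ABL1 2A stood apart from the other BCR-ABL1 lines for Mlxip, at 37.7 CPM, for Ldha, at 975 CPM, for Trrap, at 82.8 CPM, and for Top2a, at 2112 CPM. EV 2B stood apart for Pax5, at 568 CPM. EV 2A stood apart for Cdkn2b, at 0.153 CPM, where the other EV lines had at most 1 count. Of 58 groups of 6 lines examined, for the members and the named list genes, 11 held such a line by Dixon's criterion, and chance gives about 2.9.

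Of the members and the named list genes, 7 list genes and 0 members had a change that differed between the mice by the interaction test of edgeR. Mouse 2 minus mouse 1, on the log2 scale, was -1.88 for Pvt1 (FDR = 0.00458), -0.79 for Tfrc (FDR = 0.00392), -2.87 for Ccnd2 (FDR = 0.00994), -3.80 for Gadd45a (FDR = 0.00446) and -1.45 for Kat2a (FDR = 0.0134), each with the larger difference in mouse 1. It was 0.48 for Mki67 (FDR = 0.0192) and 0.55 for Top2a (FDR = 0.0311). Over the whole lists the test called 2 of 50 MYC induced, 3 of 9 MYC repressed, 1 of 19 coactivator and corepressor, 4 of 17 turnover, 7 of 18 proliferation and 2 of 9 B lineage genes, beside 16.9% of all genes.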

How the results depend on the processing

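No result reversed as a call under any alternative run. Mxd4 was called in 21 of 23 alternatives, with a log2 fold change of -1.89 to -0.92, and lost its call with the line pair as replicate block (FDR = 0.0525) and in mouse 2 alone (FDR = 0.0596). Mycn was positive in the 22 alternatives that gave it an adjusted p, from 1.81 to 5.07, and called in 6. Myc was called in none, and its log2 fold change ran from -0.15 in mouse 2 alone to 0.54 without EV 2C, with -0.02 without EV 2B. Uncalled differences of other genes, among them Mnt, Mlxip, Txnip and Mki67, also changed sign in some alternatives. With 0 members called higher, the count was 1 under the likelihood ratio fit, mouse as replicate block, line pair as replicate block and mouse 1 alone, 2 against no change, and 0 to 1 when each line was left out. The members called lower, 1, became 4 against no change and 0 with the line pair as replicate block and in mouse 2 alone. Over all genes 901 higher became 3389 against no change, 2512 in mouse 1 and 807 to 1353 with a line left out, and 976 lower became 650 under DESeq2, 3897 against no change, 1877 in mouse 1 and 408 in mouse 2. Of the lists 6 higher became 58 against no change, 36 in mouse 1, 3 in mouse 2 and 5 to 30 with a line left out, and 0 lower became 7 against no change. The members with a called interaction, 0, became 0 to 2 with a line left out. The mouse as replicate block changed the calls of Mycn and Gadd45a as given above. DESeq2 gave no adjusted p for Mycn or Ccnd2. The causes were not tested. The fold tested limits small differences, and no protein or binding was measured.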
